A study of Mus musculus with 6 samples.

Results

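The contactins (Cntn1 to Cntn6) and the Cadm proteins (Cadm1 to Cadm4) are cell adhesion molecules of the immunoglobulin superfamily, and their 10 genes were picked from the 55421 genes of the deposited tables by gene symbol. All 10 had enough counts to be tested, among 32905 genes. The cerebral cortex was microdissected from 6 wild-type male C57BL/6J mice, with 3 at the age of 6 months (mice 10, 11 and 17) and 3 at the age of 24 months (mice 2, 4 and 5), and messenger RNA expression was compared between the ages as young and old adults. All mice were anesthetized with isoflurane before cervical dislocation, the frozen cortex was powdered, and each mouse gave 1 RNA-seq library, so that p-values measure the spread between these mice. CNTN1 and CADM2 were among the proteins that the study selected for targeted mass spectrometry, and only the RNA was analysed here.

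Contactins are anchored to the outer face of the membrane by a glycolipid and bind other adhesion molecules through immunoglobulin and fibronectin type III domains. They take part in axon growth, in synapse formation and in the contact between axons and myelinating glia next to the nodes of Ranvier. Cadm proteins, also called SynCAM or nectin-like proteins, cross the membrane once and bind each other across the synaptic cleft and between axons and glia, while their short cytoplasmic tails bind scaffold proteins.

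Depth was similar in the 6 libraries, with 29495379 to 36494240 counts on genes. The TMM scaling factors of edgeR were 0.92 to 0.95 at 6 months and 1.04 to 1.10 at 24 months, and the normalised read counts (CPM) below are scaled with them, whereas the deposited TPM values, which are corrected for gene length, are not. With this scaling log2 fold changes of 24 against 6 months had a median of 0.15 for the whole set of genes tested and of -0.14 for the 15793 genes with a mean of at least 1 CPM, to which the 10 genes belong. With scaling by library totals alone these medians were 0.33 and 0.05, so that differences between the ages are also given relative to the median of genes of at least 1 CPM. Markers of the labelled tissue were present, and 8 neuron markers summed to 6517 to 10338 CPM.

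The sequences before the transcription start are shown for Cntn1 and Cadm2, whose fitted fold changes were below 0 without passing the threshold, and for Cadm4, whose fitted fold change was above 0. A RefSeq promoter entry (build GRCm38) was found for 9 of the 10 genes, and Cadm1 had none. Each line holds the 250 bases before the start, 5′ to 3′ on the strand of the gene, at chr15:92050915-92051164 (plus strand, the first of 3 listed starts) for Cntn1, chr16:67620909-67621158 (minus strand) for Cadm2 and chr7:24481773-24482022 (plus strand) for Cadm4. None of these windows touches an annotated exon. Capitals mark the GC box (GGGCGG or CCGCCC) and the CCAAT box (CCAAT or ATTGG), both searched on both strands, and no match overlapped another in these windows.
Cntn1: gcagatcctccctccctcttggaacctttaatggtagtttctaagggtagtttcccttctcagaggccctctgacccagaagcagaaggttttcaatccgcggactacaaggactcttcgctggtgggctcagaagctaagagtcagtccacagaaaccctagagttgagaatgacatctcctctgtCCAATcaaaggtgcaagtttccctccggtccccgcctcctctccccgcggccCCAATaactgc
Cadm2: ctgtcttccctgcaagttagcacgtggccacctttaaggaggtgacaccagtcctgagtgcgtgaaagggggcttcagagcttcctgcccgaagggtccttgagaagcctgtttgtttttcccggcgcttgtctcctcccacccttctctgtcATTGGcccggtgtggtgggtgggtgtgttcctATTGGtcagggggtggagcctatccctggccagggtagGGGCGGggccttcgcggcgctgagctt
Cadm4: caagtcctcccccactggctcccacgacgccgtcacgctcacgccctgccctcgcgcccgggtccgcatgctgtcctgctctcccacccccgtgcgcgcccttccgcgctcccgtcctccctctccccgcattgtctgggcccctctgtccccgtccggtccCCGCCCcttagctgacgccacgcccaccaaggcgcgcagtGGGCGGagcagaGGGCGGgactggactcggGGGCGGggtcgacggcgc
The Cadm4 window was the richest in GC of these, with 75.2% GC, 30 CpG dinucleotides and 4 GC boxes. The Cadm2 window had 60.8% GC, 10 CpG dinucleotides, 1 GC box and 2 CCAAT boxes. The Cntn1 window had 53.6% GC, 7 CpG dinucleotides, 2 CCAAT boxes and no GC box. Over 27025 windows of the same length, 1 for each gene, the median was 52% GC and 6 CpG dinucleotides, 32.9% held a GC box and 34.5% held a CCAAT box, so either motif is common.

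The 10 genes differed widely in their level in the cortex. Averaged over the 6 mice, Cntn1 had the highest level with 230 TPM, followed by Cadm4 (170 TPM), Cadm3 (119 TPM), Cadm2 (93.6 TPM) and Cadm1 (89.3 TPM). The other contactins lay below the Cadm genes, with 31.9 TPM for Cntn4, 19.1 for Cntn2, 9.97 for Cntn5, 8.90 for Cntn6 and 5.88 for Cntn3. Only 2 steps in this order were wider than the spread between mice, that from Cadm1 to Cntn4 and that from Cntn4 to Cntn2, and all other neighbours overlapped in range. With CPM per kb of exon the order was the same, but only the step from Cadm1 to Cntn4 remained free of overlap. Both measures rest on the same counts and exonic lengths and differ by a factor for each library, so the shared order is no independent check.

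**Figure D1:**
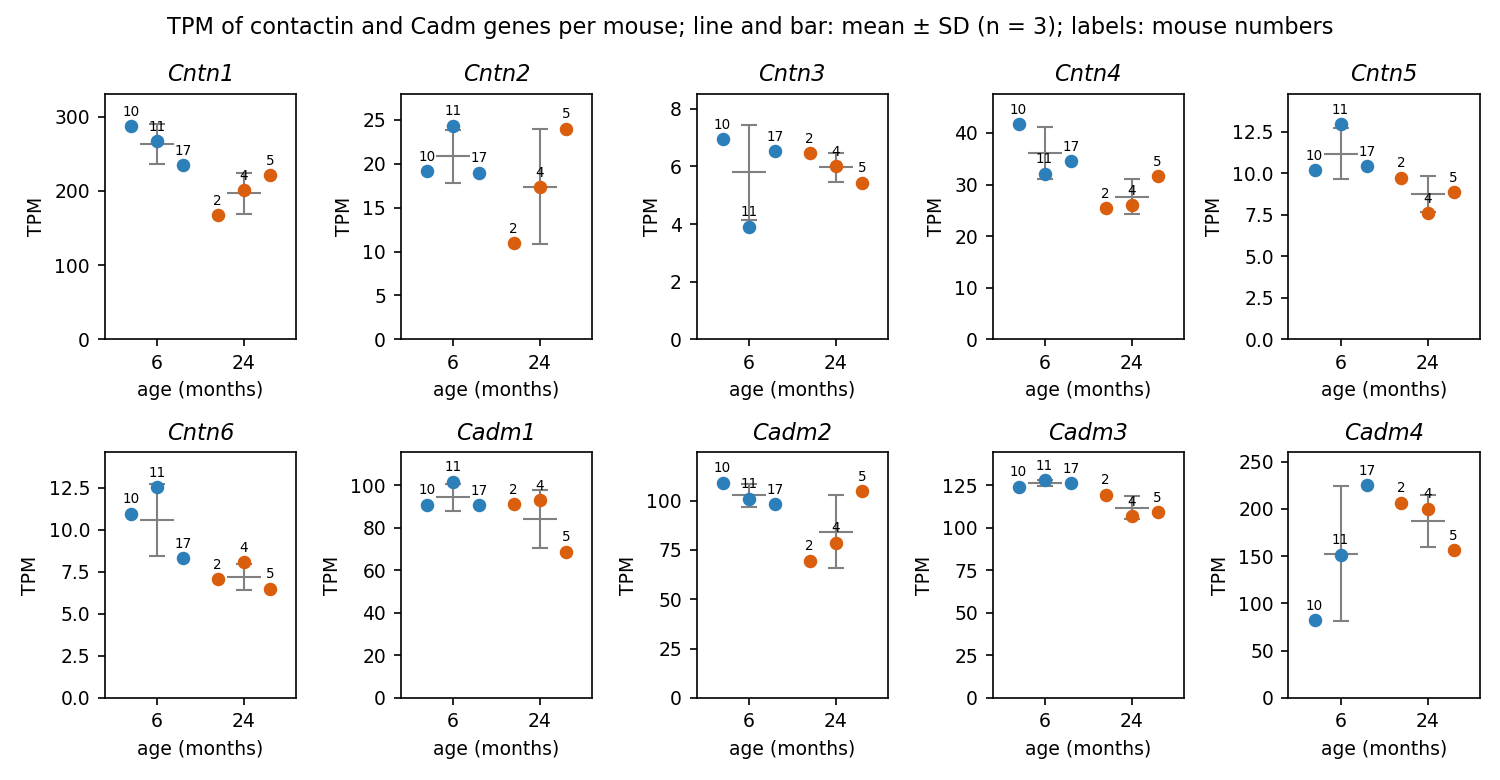
TPM of each gene (vertical axis, linear, from 0) in each mouse at 6 (blue) and 24 months (orange), with the mean and SD of 3 mice in grey and mouse numbers beside the points. In 5 genes (Cntn1, Cntn4, Cntn5, Cntn6 and Cadm3) every 24-month mouse lay below every 6-month mouse, and the share of all genes was not counted in TPM. Cadm4 spread from 81.9 to 225 TPM within the 6-month mice.

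Most of these adhesion genes were lower in the cortex of the old mice, by small amounts and none past the threshold of 1% false discovery rate (FDR). An unadjusted p under 0.05 was found with edgeR's quasi-likelihood test for 7 genes, Cntn1, Cntn4, Cntn5, Cntn6, Cadm1, Cadm2 and Cadm3, all lower at 24 months. The direction was shared by a large part of the transcriptome, since 13.1% of all genes tested and 26.9% of genes of at least 1 CPM were lower by the same rule. No member was higher by that rule, against 17.6% of all genes tested and 4.31% of genes of at least 1 CPM. At 1% FDR the quasi-likelihood test called 0 of the 10 genes and 0% of all genes tested, although 10096 genes had an unadjusted p under 0.05. The likelihood ratio test of edgeR called 0 of the 10 genes at 1% FDR and 1703 genes in all (5.18%), the exact test 0 and 1122, and DESeq2 0 and 278. At 10% FDR the quasi-likelihood test called 5 of the 10 genes, all lower, against 8.33% of all genes tested and 17.3% of genes of at least 1 CPM.

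The median log2 fold change was -0.48 over the 6 contactins, -0.28 over the 4 Cadm genes and -0.39 over all 10. Relative to the median of genes of at least 1 CPM, the log2 differences were -0.39 for Cntn1, -0.23 for Cntn2 and 0.07 for Cntn3. They were -0.36 for Cntn4, -0.33 for Cntn5 and -0.53 for Cntn6. For Cadm1, Cadm2, Cadm3 and Cadm4 they were -0.13, -0.26, -0.14 and 0.33. In CPM the 24-month mice lay wholly below the 6-month mice for 7 genes, against 16.2% of all genes tested and 32.4% of genes of at least 1 CPM. With TPM, which carries no TMM factor, this held for 5 genes, and the share of all genes was not counted in TPM. No gene of the 10 had its 24-month mice wholly above the 6-month mice in CPM, against 20% of all genes tested. In this direction the share of genes of at least 1 CPM was not counted. The count of 7 genes with an unadjusted p under 0.05 depended on the scaling and on single mice. It was 3 (Cntn1, Cntn4 and Cntn6) with library totals, where 2.87% of all genes tested were lower by this rule, and also 3 without the 6-month mouse 11 or without the 24-month mouse 4. Calls over all genes, in both directions, fell as well, from 10096 with all mice to 6653 without mouse 11 and 5885 without mouse 4. Scaling by TMM from genes of at least 1 CPM gave the same 3 genes against 4.1% of all genes, a filter on a mean of at least 1 CPM the same 3 against 8.59% of the genes then tested, and edgeR's filterByExpr filter 4, with Cntn5, against 9.56%.

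**Figure D2:**
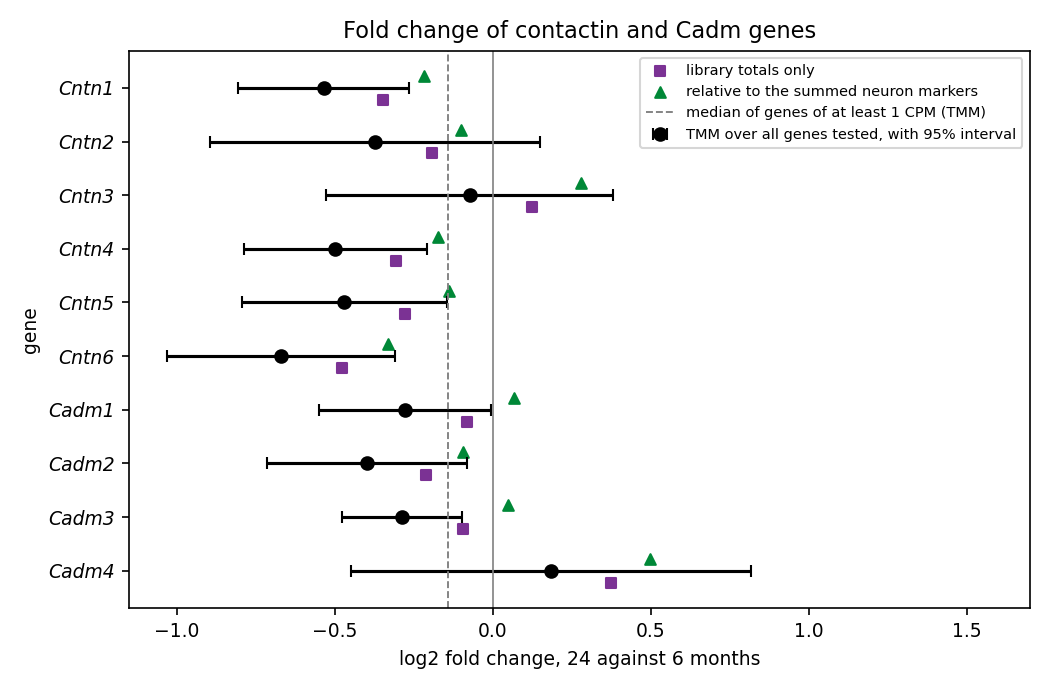
Log2 fold change of 24 against 6 months for each gene with TMM scaling and its 95% interval (black), with library totals (squares) and relative to the summed neuron markers (triangles), with a dashed line at the median of genes of at least 1 CPM, -0.14. With TMM 9 of 10 genes lay below 0, as did 41.6% of all genes tested and 69.9% of genes of at least 1 CPM. The other scalings moved every gene of the 10 to the right.

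Cntn1 encodes the contactin that forms, with Cntnap1 (Caspr), the axonal side of the junction between axon and myelin loops, and that also acts in neurite growth. It lies on chromosome 15 from 92051165 to 92341967 (GRCm38, plus strand). Its level was 776, 712 and 628 CPM in the 6-month mice 10, 11 and 17, and 415, 498 and 548 CPM in the 24-month mice 2, 4 and 5. All old mice were below all young mice, and the young mouse 17 lay close to the old mouse 5. The fitted log2 fold change was -0.53 (SE 0.12, 95% interval -0.80 to -0.26), a fold of 0.69, with an adjusted p of 0.0536 in the quasi-likelihood test. Relative to the median of genes of at least 1 CPM the difference was -0.39. The unadjusted p stayed under 0.05 in all 9 alternative fits and without any 1 mouse, with log2 fold changes of -0.62 to -0.35.

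Cntn4, Cntn5 and Cntn6 belong to the branch of the family with roles in the wiring of sensory and motor circuits. Cntn4, which binds amyloid precursor family proteins, was at 101, 76.9 and 83.0 CPM in the 6-month mice 10, 11 and 17, and at 56.5, 57.9 and 70.5 CPM in the 24-month mice 2, 4 and 5. The ages did not overlap, and the highest old mouse was near the lowest young mouse. Cntn4 had a log2 fold change of -0.50 (SE 0.13, 95% interval -0.79 to -0.21, adjusted p = 0.0602, quasi-likelihood test).

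Cntn5, known for its role in the auditory pathway, was counted with fewer reads, 407, 573 and 439 at 6 months and 376, 313 and 360 at 24 months. Scaled, these were 13.2, 16.6 and 13.4 CPM in mice 10, 11 and 17, and 11.6, 9.05 and 10.6 CPM in mice 2, 4 and 5. The young mouse 11 stood above the others, and the remaining young mice were close to the old mouse 2. Its fitted log2 fold change was -0.47 (SE 0.15, 95% interval -0.79 to -0.15, adjusted p = 0.0763, quasi-likelihood test).

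Cntn6, a contactin of cerebellar and cortical projection neurons that binds Chl1, had the lowest fold change of the 10 genes. Its level was 20.4, 23.0 and 15.3 CPM in mice 10, 11 and 17, and 12.0, 13.8 and 11.1 CPM in mice 2, 4 and 5. The young mice were spread by 1.51-fold and the old mice by 1.24-fold, and the ranges did not overlap. The log2 fold change of Cntn6 was -0.67 (SE 0.16, 95% interval -1.03 to -0.31, adjusted p = 0.0553, quasi-likelihood test), or -0.53 relative to the median of genes of at least 1 CPM. With library totals the log2 fold changes were -0.31 for Cntn4, -0.28 for Cntn5 and -0.48 for Cntn6. Like Cntn1, Cntn4 and Cntn6 had an unadjusted p under 0.05 in all 9 alternative fits and without any 1 mouse.

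Cntn3, the contactin of lowest level here, overlapped between the ages. It was at 13.4, 7.44 and 12.5 CPM in mice 10, 11 and 17, and at 11.4, 10.6 and 9.61 CPM in mice 2, 4 and 5. The low value of mouse 11 made the young mice spread by 1.80-fold. Fitted over all mice, the log2 fold change of Cntn3 was -0.07 (SE 0.20, 95% interval -0.53 to 0.38, adjusted p = 0.833, quasi-likelihood test), and its direction turned with the scaling, to 0.12 with library totals. Cntn3 and Cntn6 thus had fitted fold changes at opposite ends of the contactins, a difference between genes that was not tested.

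Cntn2, also called TAG-1, is carried both by axons and by oligodendrocytes and forms, with Cntnap2, the complex beside the paranode where potassium channels gather. Its level was 51.0, 63.9 and 50.1 CPM in mice 10, 11 and 17, and 26.7, 42.3 and 58.6 CPM in mice 2, 4 and 5. The old mice covered a 2.20-fold range that took in the level of 2 of the young mice, with mouse 2 lowest and mouse 5 high. The log2 fold change of Cntn2 was -0.37 (SE 0.23, 95% interval -0.89 to 0.15, adjusted p = 0.301, quasi-likelihood test). The size rested on single mice, with -0.12 without mouse 2, -0.21 without mouse 11 and -0.67 without mouse 5. The unadjusted p of the quasi-likelihood test was 0.488 without mouse 2, 0.451 without mouse 11 and 0.0085 without mouse 5.

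The sum of 7 markers of mature oligodendrocytes, among them the myelin genes Mbp and Mog, followed a similar order over the mice. It was 1952, 2505 and 1615 CPM in mice 10, 11 and 17, and 851, 2040 and 2758 CPM in mice 2, 4 and 5. By the quasi-likelihood test 0 of these 7 markers had an unadjusted p under 0.05, against 26.9% of genes of at least 1 CPM lower and 4.31% higher. Their median log2 fold change was -0.12, and the old mice covered a 3.24-fold range in the sum. Per 1000 CPM of these markers, Cntn2 was at 26.1, 25.5 and 31.1 CPM in the young mice and at 31.3, 20.7 and 21.2 CPM in the old mice. On this scale the old mouse 2, the lowest in CPM, was the highest of all mice. The part of oligodendrocyte content in the Cntn2 values was not tested. In bulk tissue, fewer cells of a type and less RNA per cell cannot be told apart.

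**Figure D3:**
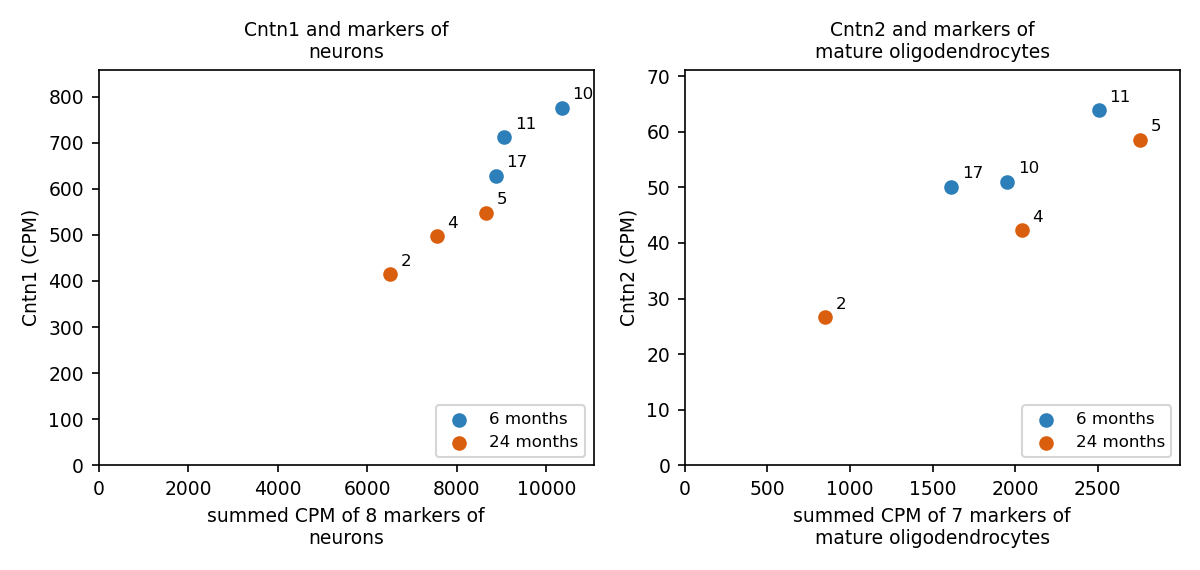
CPM of Cntn1 against the summed CPM of 8 neuron markers (left) and of Cntn2 against the summed CPM of 7 markers of mature oligodendrocytes (right), 1 point for each mouse, with mouse numbers, at 6 (blue) and 24 months (orange). Mouse 2 is lowest on all 4 axes, and the neuron marker sums of the old mice (6517 to 8647 CPM) lie below those of the young mice (8874 to 10338 CPM).

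Among the Cadm genes, Cadm2, whose product is found mostly in the nervous system and joins synaptic and axonal contacts, was at 306, 280 and 273 CPM in mice 10, 11 and 17, and at 179, 203 and 270 CPM in mice 2, 4 and 5. The old mouse 5 was almost at the level of the young mice, and in TPM, where it had 105 against 98.1 to 109 in the young mice, the ages overlapped. Cadm2 had a log2 fold change of -0.40 (SE 0.14, 95% interval -0.72 to -0.08, adjusted p = 0.101, quasi-likelihood test). It was -0.58 without mouse 5, -0.27 to -0.43 without any other 1 mouse, and -0.21 with library totals (unadjusted p = 0.124, quasi-likelihood test).

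Cadm1, the SynCAM protein best known for promoting excitatory synapses, was at 272, 300 and 268 CPM in mice 10, 11 and 17, and at 250, 255 and 188 CPM in mice 2, 4 and 5. Here mouse 5 was the lowest of the old mice, the reverse of its place for Cadm2. For Cadm1 the log2 fold change was -0.28 (SE 0.12, 95% interval -0.55 to -0.0046, adjusted p = 0.157, quasi-likelihood test), and its unadjusted p was above 0.05 in all 9 alternative fits. It was -0.15 without mouse 5 (unadjusted p = 0.139, quasi-likelihood test) and -0.08 with library totals. Its TPM values overlapped between the ages, with 68.7 to 92.8 TPM at 24 months and 90.5 to 102 TPM at 6 months.

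Cadm3, an axonal Cadm protein that pairs with Cadm4 on myelinating glia, varied least between mice. It was at 257, 262 and 259 CPM in mice 10, 11 and 17, a range of 1.02-fold, and at 227, 203 and 208 CPM in mice 2, 4 and 5. All old mice were below all young mice in CPM and in TPM. The log2 fold change of Cadm3 was -0.29 (SE 0.08, 95% interval -0.48 to -0.10, adjusted p = 0.0698, quasi-likelihood test), of which -0.14 remained relative to the median of genes of at least 1 CPM. With library totals the log2 fold change of Cadm3 was -0.09.

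Cadm4, the glial partner of Cadm3 in peripheral nerve, was the 1 gene whose fitted level was not lower in the old mice. It was at 50.6, 92.4 and 138 CPM in mice 10, 11 and 17, and at 117, 114 and 88.6 CPM in mice 2, 4 and 5. The young mice alone covered a 2.73-fold range around all old mice. Its log2 fold change was 0.18 (SE 0.28, 95% interval -0.45 to 0.82, adjusted p = 0.685, quasi-likelihood test). The direction rested on the young mice, since it was -0.11 without mouse 10 and 0.58 without mouse 17, with an unadjusted p of 0.0377 in the latter. Cadm4 has the highest GC content of the 10 genes, with 60.0% in its longest transcript. Genes of like GC content (the top decile) lay in mouse 10 at a median of -0.02 (log2) from their mean over the mice, against -0.92 for Cadm4. Among the GC deciles of the 10 genes, median log2 fold changes ran from -0.21 (that of Cntn1, Cntn6 and Cadm1) to -0.04 (that of Cadm4). The part of GC content in the values of the 10 genes was not tested.

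Cntn1 made up most of the contactin messenger RNA at both ages. Together the 6 contactins summed to 376, 353 and 313 TPM in mice 10, 11 and 17 (347 ± 31.8, SD, n = 3) and to 227, 266 and 298 TPM in mice 2, 4 and 5 (263 ± 35.3, SD, n = 3). The share of Cntn1 in that sum was 75.6% ± 0.737 (SD, n = 3) at 6 months and 74.6% ± 0.915 (SD, n = 3) at 24 months, within 73.8 to 76.4% in all 6 mice. The summed level of the 4 Cadm genes was 476 ± 67.0 TPM (SD, n = 3) at 6 months and 468 ± 25.7 TPM (SD, n = 3) at 24 months. The share of Cadm4 in that sum was 20.2, 31.4 and 41.7% in mice 10, 11 and 17, and 42.5, 41.8 and 35.6% in mice 2, 4 and 5, so that the order of the Cadm genes differed between single mice of the same age.

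The sum of 8 neuron markers was lower in the old mice as well. It was 9424 ± 797 CPM (SD, n = 3) at 6 months and 7570 ± 1065 CPM (SD, n = 3) at 24 months without overlap. Snap25 and Syt1 held most of it, with 5794 and 2325 CPM in mouse 10. By the quasi-likelihood test 3 of the 8 were lower with an unadjusted p under 0.05, against 26.9% of genes of at least 1 CPM. Their median log2 fold change was -0.28, against -0.14 for genes of at least 1 CPM. Single markers ran from -0.45 for Stmn2 to -0.06 for Slc17a7. Per 1000 CPM of these markers, Cntn1 was at 75.0, 78.5 and 70.8 CPM in mice 10, 11 and 17 and at 63.7, 65.9 and 63.4 CPM in mice 2, 4 and 5. Cntn1 was the 1 gene of the 10 whose ages did not overlap on this scale, with a log2 ratio of -0.22, and the other 9 overlapped. The share of all genes without overlap was not counted on this scale. The log2 ratio was above 0 on it for Cntn3 (0.28), Cadm1 (0.07), Cadm3 (0.05) and Cadm4 (0.50). Whether neuron content or its RNA played a part in the members' values was not tested. Summed markers of astrocytes, microglia, endothelial cells and oligodendrocyte precursors overlapped between the ages.

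Most binding partners of the contactins were lower in the old mice. Of 16 partners, 11 were lower with an unadjusted p under 0.05, against 13.1% of all genes tested and 26.9% of genes of at least 1 CPM, and none was higher, with a median log2 fold change of -0.43 against -0.14 for genes of at least 1 CPM, and 1% FDR was reached by none of them (quasi-likelihood test). Without mouse 11 the count was 7, and without mouse 5 it was 15. All genes with such a p numbered 6653 without mouse 11 and 10634 without mouse 5, against 10096 with all mice. With library totals, or with the filter on a mean of at least 1 CPM, 8 partners had an unadjusted p under 0.05. The lowest was Cntnap4, a neurexin-like protein that binds Cntn5. Cntnap4 was at 38.1, 61.9 and 28.6 CPM in mice 10, 11 and 17 and at 15.0, 26.2 and 28.0 CPM in mice 2, 4 and 5, with a log2 fold change of -0.89 (SE 0.29, adjusted p = 0.0827, quasi-likelihood test). The highest was Aplp1, a relative of the amyloid precursor protein, with 0.14 (SE 0.23). The 11 lower partners included the L1 family members L1cam (-0.62), Chl1 (-0.68), Nrcam (-0.52) and Nfasc (-0.42), which were chosen for mention after their values were seen. Cntnap1, the partner of Cntn1 at the paranode, did not have an unadjusted p under 0.05 (-0.16, SE 0.20).

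Scaffold proteins that bind the tails of Cadm proteins include the Cask complex and proteins of the membrane skeleton. Of 14, 4 were lower with an unadjusted p under 0.05 (Mpp2, Lin7a, Lin7b and Lin7c), against 26.9% of genes of at least 1 CPM, and none was higher, with a median of -0.19, and 1% FDR was reached by none of them (quasi-likelihood test). The count was 0 with library totals and 1 without mouse 11 or without mouse 4. All genes with such a p numbered 6653 and 5885 without these mice, against 10096 with all mice. The lowest was Lin7c, a PDZ protein of the Cask complex, with -0.37 (SE 0.10), and the highest Epb41, a membrane skeleton protein, with 0.15 (SE 0.21).

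Other adhesion genes were counted by the same rule, by which 26.9% of genes of at least 1 CPM were lower and 4.31% higher. Of 30 other synaptic adhesion genes, 15 were lower and 1 higher with an unadjusted p under 0.05, with a median of -0.28, and the count of 16 became 10 without mouse 10 or mouse 11, 8 without mouse 4 and 9 with library totals. The lowest was Lrrtm2, a postsynaptic partner of neurexins, with -0.69 (SE 0.18), and the highest was Lrrc4b, a postsynaptic leucine-rich repeat protein, with 0.34 (SE 0.14). Of the 5 IgLON genes, glycolipid-anchored like the contactins, 2 were lower by this rule, with a median of -0.19, from -0.79 for Negr1 (SE 0.13) to 0.22 for Iglon5 (SE 0.29). Of 15 genes of the node of Ranvier and the juxtaparanode, 2 were lower by this rule (Nfasc and Cntnap2, which the partner list also holds), with a median of -0.16, from -0.50 for Cntnap2 (SE 0.12) to 0.46 for Sptbn4 (SE 0.48). Without mouse 5, 7 of the 15 had an unadjusted p under 0.05, and without mouse 11 or mouse 4 only 1 had. For the IgLON genes the count was 1 without mouse 10, 11 or 4. Over all genes 10096 had such a p with all mice, 7404 without mouse 10 and 6653 without mouse 11. The number was 5885 without mouse 4 and 10634 without mouse 5. No gene of these lists reached 1% FDR (quasi-likelihood test).

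**Figure D4:**
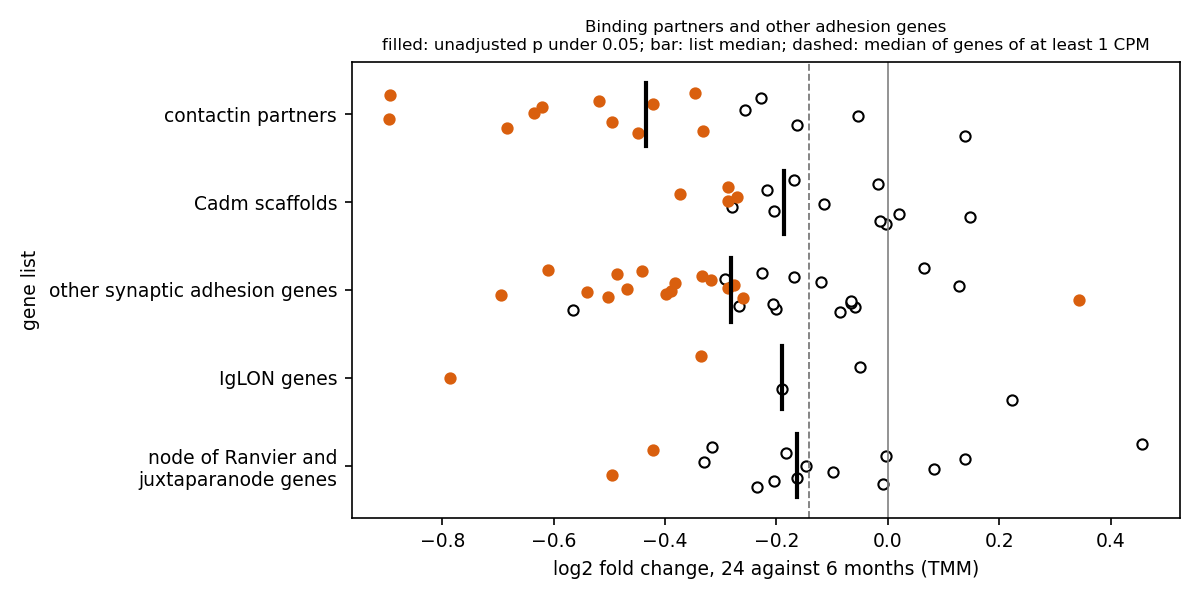
Log2 fold change of 24 against 6 months with TMM scaling for each gene of 5 lists, filled where the unadjusted p is under 0.05, with the list median as a bar and the median of genes of at least 1 CPM (-0.14) as a dashed line. The contactin partners have the lowest median of the lists, -0.43, and a single filled point, Lrrc4b at 0.34, lies above 0.

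Over the 6 mice the levels of several genes varied together. The Pearson correlation of log2 CPM was 0.93 between Cntn1 and Cadm2, 0.92 between Cntn1 and Cntn4 and 0.92 between Cntn5 and Cadm3, but 0.11 between Cadm1 and Cadm2. Cadm4 had a negative correlation with each of the other 9 genes, down to -0.65 with Cntn4. These correlations hold the age difference and the scaling of the libraries, and describe 6 points only. The gene most like Cntn1 among 15783 others was the ubiquitin-conjugating enzyme gene Ube2d3 (Pearson r = 0.999), and 1236 genes had r above 0.95 with Cntn1. The most like Cntn4 was the spectrin gene Sptan1 (r = 0.999), and the most like Cadm2 the kinase gene Camk4 (r = 0.999). For the others it was ENSMUSG00000035310, listed without a symbol, for Cntn2 (0.999), Gm9954 for Cntn3 (0.981), Frmd6 for Cntn5 (0.992), Exosc10 for Cntn6 (0.999), Ogfr for Cadm1 (0.992), Cracd for Cadm3 (0.999) and Ankrd13a for Cadm4 (0.998).

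Most of these are long genes with a small exonic part. Cntn5 spans 1243885 bp of chromosome 9 (9660891 to 10904775, minus strand) with 4531 bp of exon, Cntn4 spans 1021651 bp of chromosome 6 (105677660 to 106699310, plus strand), and Cadm2 spans 965488 bp of chromosome 16 (66655421 to 67620908, minus strand). The 3 short ones are Cadm3 (34438 bp), Cntn2 (33830 bp) and Cadm4 (22517 bp). Genes of at least 1 CPM with a span of at least 200 kb (877 genes) had a median log2 fold change of -0.20, those of 50 to 200 kb -0.17 and those under 50 kb -0.13.

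Reads on genes taken as silent in cortex were denser in the 24-month libraries. On 1542 sensory receptor genes, the count density was 0.0222 to 0.0249 CPM per exonic kb at 6 months and 0.0530 to 0.0856 at 24 months. At that density over their exons, such reads would make up at most 5.06% of the counts of Cntn3, 4.62% of Cntn6, 3.60% of Cntn5 and 0.195% of Cntn1 in any mouse. Taking them off was a step not planned in advance. It moved the log2 ratio of mean CPM of Cntn6 from -0.67 to -0.71 and that of Cntn3 from -0.07 to -0.12. It turned no gene's direction. The study reported sensory perception as the main process among its genes raised with age. Whether reads on these receptor genes are background, and whether their density holds for the 10 genes, was not tested. Some of the 10 genes share exonic bases with a neighbour, and reads on those bases were not told apart here. Cadm3 shares 361 exonic bp with Ackr1, which lies on the same strand, Cntn5 290 bp with the antisense gene Gm32710 and Cadm2 256 bp with the antisense gene 1700010K23Rik.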

How the data were processed

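RNA was extracted from the cortex of 6 mice, 3 of each age, and libraries were made from 10 ng of total RNA with the NEBNext Single Cell/Low Input kit. The authors checked reads with FastQC 0.11.8, trimmed them with Trim Galore 0.6.4, mapped them with STAR 2.7.3a to GRCm38 and counted them on exons with featureCounts (Subread 2.0.0), with a stated option that splits reads of several positions. All deposited counts were whole numbers and entered the tests unaltered. TPM values, derived by the authors from these counts and the exonic length of genes, served for levels.

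Genes were kept if their counts summed to at least 10, scaled with TMM and tested with edgeR 4.0.16 (R 4.3.3), by the quasi-likelihood test without covariates over all genes, with Benjamini-Hochberg adjustment and a threshold of 1% FDR. On simulated data the quasi-likelihood test recovered at 1% FDR 65 of 100 genes with an absolute log2 fold change of 1, and 99 of 100 with 2. Smaller changes, such as those fitted for the 10 genes, were not simulated. Alternatives were the likelihood ratio and exact tests, DESeq2 1.42.0, its size factors, library totals, TMM from genes of at least 1 CPM, other filters and each mouse left out. Division by summed neuron markers was added after the data were seen. The subtraction of the read density of sensory receptor genes was also not planned in advance. Correlations used log2 CPM with a prior count of 2. Other steps used scipy 1.17.1, numpy 2.4.6, pandas 2.3.3 and Python 3.11.15.

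The members and lists were chosen with earlier results of these data known. Named were all 10 members, the lowest and highest gene of each list among those with a mean of at least 1 CPM, any at 1% FDR, and the gene most correlated with each member. List genes were matched by symbol or, for Ptprg and Mpp6, by gene identifier. A further marker of mature oligodendrocytes is not reported here. Positions are from GENCODE vM21 and promoter sequences from RefSeq. Summed markers of striatum were 71.3 to 87.8 CPM, of choroid plexus 18.2 to 44.6, of meninges and perivascular fibroblasts 28.9 to 76.0, of red blood cells 57.0 to 98.4 and of immediate early genes 481 to 2810. Those of striatum were lower at 24 months without overlap.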

Additional observations from a re-analysis of the deposited data

How the results depend on the processing

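No member passed 1% FDR in any of the 9 alternative fits or without any 1 mouse, while over all genes the count past 1% FDR, 0 with the quasi-likelihood test, was 1703 with the likelihood ratio test, 1122 with the exact test, 278 with DESeq2 and 42 without a filter, and 0 to 13 with 1 mouse left out. The 7 members with an unadjusted p under 0.05 were 3 with library totals, 3 with TMM from genes of at least 1 CPM, 4 with the filterByExpr filter, 3 with a filter on a mean of at least 1 CPM, 6 in the other alternatives, and 3 to 7 with 1 mouse left out. Over all genes 10096 had such a p in the main fit, against 5885 without mouse 4 and 10634 without mouse 5. The 33 distinct partner and adhesion genes with an unadjusted p under 0.05 were 20 with library totals, 20 with the filter on a mean of at least 1 CPM, and 18 to 45 with 1 mouse left out, the lowest count without the 24-month mouse 4. The order of levels had 2 steps free of overlap in TPM and 1 in CPM per kb of exon. The log2 fold change of Cntn3 reversed to 0.125 with library totals, 0.0872 with TMM from genes of at least 1 CPM or with the filter on that mean and 0.0446 with filterByExpr, and with 1 mouse left out ranged from -0.256 to 0.0875, above 0 without mouse 10 or 17. That of Cadm4 ranged from -0.113, without mouse 10, to 0.575. Relative to summed neuron markers, an alternative added after the data were seen, Cntn3 (0.278), Cadm1 (0.067) and Cadm3 (0.0475) reversed. The other members kept their direction throughout. The cause of these changes was not tested. No paired analysis was possible because the ages share no mouse number. Cntn3, Cntn5 and Cntn6 rest on 257 to 795 counts per library.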

Other observations

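The low Cadm4 level of the 6-month mouse 10 was shared by some genes of the lists, chosen here after their values were seen. Aplp1 was at 763 CPM in mouse 10, against 1468 and 1662 CPM in the young mice 11 and 17 and 1253 to 1575 CPM in the old mice. Sptbn4, which encodes the spectrin of the node of Ranvier, was at 9.63 CPM in mouse 10, 16.4 in mouse 11 and 46.0 in mouse 17, against 20.4 to 45.4 CPM in the old mice. Slitrk5, a synaptic leucine-rich repeat protein, was at 100.0 CPM in mouse 10, against 177 and 208 CPM in mice 11 and 17 and 163 to 176 CPM in the old mice. These genes, like Cadm4, had log2 fold changes above 0, and their unadjusted p was above 0.05 for each (quasi-likelihood test). A low value in 1 young mouse by itself raises the fold change, so the shared direction adds no information. Ptprf and Apba1 were also lowest in mouse 10, at 29.6 and 81.7 CPM. Their log2 fold changes were -0.17 and -0.004, not above 0.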
